A study of Sus scrofa with 37 samples.

Results

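Neuregulin 1 (NRG1), its receptor genes ERBB2 and ERBB3, and the neural-type genes VGF, ARC, NRN1, LGI1, NGFR and BDNF were followed in contused pig skeletal muscle. These 9 symbols were looked up in a deposited matrix of 9418 gene rows, and 7 of them had a row. NGFR and BDNF are not analysed here. All 7 passed the filter on low counts that left 9411 genes for testing, a filter that a gene can pass through the one group in which it is high. The genes were listed because earlier results of these data had shown differences between injured and control muscle. Their values against control are therefore given as a description, without a test.

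The tissue was skeletal muscle of the Bama minipig, a small pig breed, sampled after contusion, a blunt injury. There were 9 libraries labelled control and 28 injured ones. The injured libraries came in groups of 4, taken every 4 h from 4 to 24 h and again at 48 h. The design text gives 8 minipigs, and no label ties a library to an animal or states an age, a sex or a genotype. Mechanical damage stands as the treatment on all 37 labels, the control labels included, and how control muscle was handled is not stated there. All p-values below measure spread between libraries, which may be partly technical, and do not speak to spread between animals. In bulk muscle, fewer cells of a type and less RNA per cell cannot be told apart.

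Neuregulin 1 is a growth factor with an EGF-like domain that binds ERBB3 or ERBB4. ERBB2 has no known ligand of its own and signals as the partner of ERBB3. In nerve, axonal NRG1 supports the survival and myelination of Schwann cells, and in muscle neuregulin signalling acts on junctions and spindles. VGF encodes a granin-like precursor of secreted peptides. ARC is an immediate early gene of active neurons, NRN1 encodes neuritin, a membrane-anchored protein that promotes neurite outgrowth, and LGI1 encodes a secreted ligand of the synaptic receptors ADAM22 and ADAM23. NGFR and BDNF encode the p75 neurotrophin receptor and a neurotrophin.

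Counts summed over the matrix ran from 9.86 to 22.88 M per library, and 3 counts corresponded to 0.108 to 0.378 CPM, counts per M of the library size scaled by TMM. The muscle creatine kinase gene CKM was at 5520 to 40400 CPM in every library. The libraries also differed along a line that no label names. An earlier analysis of these data divided them into 5 sets by column total and by the genes C1QBP, NDUFAF8 and ND6. All 16 h libraries and 3 of the 8 h libraries were in set 1, together with 2 controls. The 4 h libraries were in set 2 (3 libraries) and set 3 (1 library), which contain 0 controls, so no 4 h library can be compared with a control of its own set. The 12 h and 20 h libraries were divided equally between set 2 and set 4, and set 4 contains 4 controls. Set 5 contains 3 controls, the fourth 8 h library and every 48 h library, while the 24 h libraries were spread over sets 2, 3 and 5.

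NRG1, the ligand, lies at chr15:52625550-53688003 of Sscrofa11.1. In the 9 controls it ran from 0 to 0.365 CPM with a median of 0. In 5 controls it had 0 counts, and in 8 it had at most 3. At 8 h the 4 libraries were at 20.8, 19.8, 8.56 and 4.19 CPM (replicates 1 to 4, the order used throughout). Every 8 h library lay above every control, and replicates 1 and 2 carried most of the signal. At 4 h the values were 0, 1.22, 1.17 and 0.110 CPM, so that replicates 1 and 4 remained within the control range. At 12 h they were 6.44, 1.95, 0.504 and 1.95 CPM, and at 16 h 5.79, 12.8, 0.660 and 1.31 CPM. The spread among replicates of 1 time was thus wide, and both times lay wholly above the controls. At 20 h NRG1 was at 1.68, 2.80, 1.33 and 5.03 CPM, again above every control. At 24 h it was at 0.651, 0.770, 2.14 and 0.144 CPM, and at 48 h at 1.78, 0.625, 0.849 and 0.0966 CPM. In each of the last groups 3 of 4 libraries lay above all controls and replicate 4 did not.

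The fitted log2 fold change of NRG1 against control was 2.51 ± 1.03 (SE) at 4 h and 6.80 ± 0.84 at 8 h. At 12, 16 and 20 h it was 4.53 ± 0.89, 5.43 ± 0.85 and 4.52 ± 0.88. At the last 2 times it was 2.91 ± 0.96 and 2.89 ± 0.98. Without 12 h replicate 1 the 12 h value was 3.64, and without 16 h replicate 2 the 16 h value was 4.47. Without 24 h replicate 3 and 48 h replicate 1 the last values were 2.13 and 2.19. These fits rest on a control group with 10 counts in all. Set against the level of 3 counts in a control library, which averaged 0.298 CPM, the 8 h mean of 13.3 ± 8.24 CPM (SD, n = 4) was 44.8 times that level. By mean level the order was 8, 16, 12, 20, 24, 48 and 4 h, then control. The ranges of each pair of neighbours in that order overlapped.

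VGF, the peptide precursor gene at chr3:8888502-8891399, was between 0 and 0.274 CPM in the controls, none of which had more than 3 counts. Its 8 h libraries were at 6.96, 6.60, 6.30 and 1.99 CPM. Replicates 1 to 3 were tightly grouped and replicate 4 stood below them, yet above all controls. At 4 h VGF was at 0, 2.55, 3.45 and 0.219 CPM, with the same 2 libraries high as for NRG1. At 12 h the values were 5.76, 0.877, 0.630 and 1.26 CPM, and at 16 h 2.67, 5.52, 1.92 and 1.44 CPM. At 20 h they were 0.839, 3.96, 7.41 and 2.52 CPM, and replicate 3 there was the highest of the 37 libraries. All libraries from 8 to 20 h were above all controls. At 24 h VGF was at 0.941, 0.0733, 2.50 and 1.12 CPM, where replicate 2 fell within the control range. At 48 h it was at 1.78, 0.313, 0.849 and 0.386 CPM, and all 4 libraries again lay above the controls, replicate 2 with 3 counts.

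The fitted log2 fold change of VGF was 4.44 ± 0.95 at 4 h, 6.18 ± 0.88 at 8 h and 3.54 ± 1.01 at 48 h. Without control replicate 2 these were 5.11, 6.85 and 4.22. Without 4 h replicate 3 the first was 3.65, and without 48 h replicate 1 the last was 2.83. The 8 h mean of 5.46 ± 2.33 CPM (SD, n = 4) was 18.3 times the level of 3 counts in a control library. The order of means was 8, 20, 16, 12, 4, 24 and 48 h, then control. Ranges overlapped between all neighbours except 48 h and control.

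ARC, the activity-regulated gene at chr4:1517986-1521403, ran from 0.0905 to 0.730 CPM in the controls, with a median of 0.217. At 4 h its libraries were at 0.343, 13.9, 35.4 and 1.97 CPM. Replicate 3 was the highest of all 37 libraries, while replicate 1 lay within the control range. At 8 h ARC was at 29.0, 30.3, 10.7 and 4.75 CPM, and at 12 h at 3.81, 0.974, 1.64 and 25.4 CPM. Every library at both times was above every control, and at 12 h replicate 4 alone made most of the mean. At 16 h the values were 1.40, 2.41, 0.396 and 1.10 CPM, at 20 h 0.746, 5.75, 3.21 and 0.838 CPM. At 24 h they were 0.579, 0.0733, 1.14 and 0.252 CPM, and at 48 h 2.02, 0, 0.695 and 0.193 CPM. At each of the last times 1 of 4 libraries was above all controls and 1 was below them all.

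The fitted log2 fold change of ARC was 5.59 ± 0.89 at 4 h, 6.11 ± 0.89 at 8 h and 4.87 ± 0.91 at 12 h. At 16, 20, 24 and 48 h it was 2.30, 3.29, 0.79 and 1.57, with standard errors of 1.00, 0.95, 1.13 and 1.08. Single libraries carried much of several values: without 4 h replicate 3 the 4 h value was 4.32, and without 12 h replicate 4 the 12 h value was 2.99. Without 20 h replicate 2, 24 h replicate 3 and 48 h replicate 1 in turn, the values of those times were 2.58, 0.03 and 0.28. The order of means was 8, 4, 12, 20, 16, 48 and 24 h, then control, and all neighbours overlapped. ARC had its highest group means at 4 to 12 h. It was above all controls in every library at 8, 12 and 20 h, and in 3 of 4 at 4 h and at 16 h. NRG1 and VGF were above all controls in every library from 8 to 20 h and in 2 of 4 libraries at 4 h. Whether these time courses differ was not tested.

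**Figure D1:**
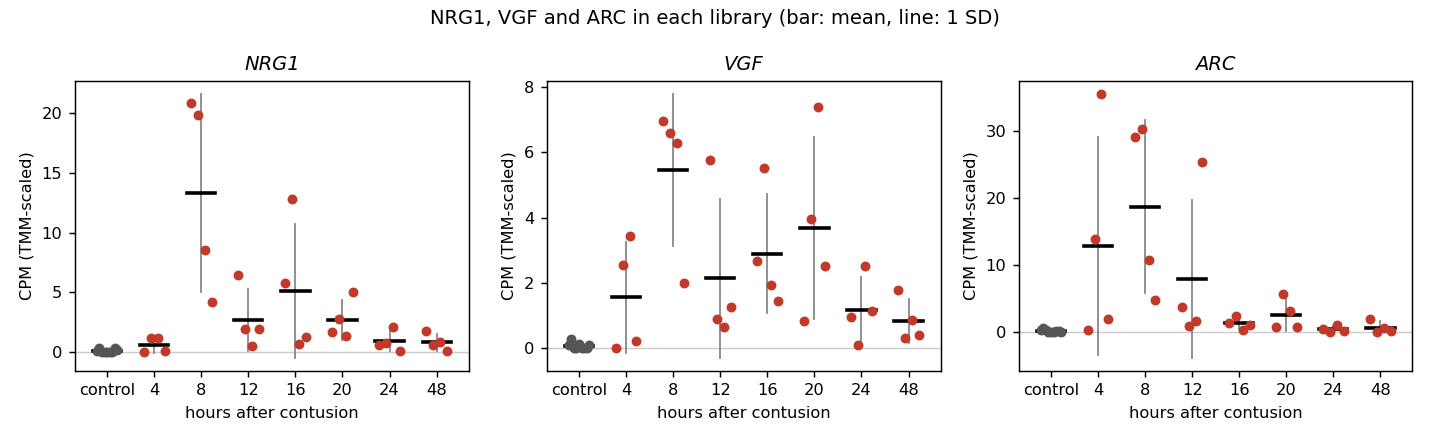
CPM (TMM-scaled) of NRG1, VGF and ARC against hours after contusion, 1 point per library, with the group mean as a bar and 1 SD as a line (n = 9 controls, n = 4 at each time). The controls lie at or near 0 and the 8 h means are the highest of each gene, with NRG1 at 13.3, VGF at 5.46 and ARC at 18.7 CPM.

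The plot of NRG1, VGF and ARC by library shows that the replicates at a time spread widely and that the same libraries tended to be high for all 3 genes. Over the 37 libraries, Pearson's r of log2 CPM was 0.88 between NRG1 and VGF, 0.72 between NRG1 and ARC and 0.77 between VGF and ARC. With each time's mean removed, over the 28 injured libraries, r was 0.67, 0.62 and 0.78. These correlations are descriptions. The points share the library, its depth and the animals.

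ERBB2 and ERBB3, the receptor genes, had group means far closer to control than those of the ligand. ERBB2, at chr12:22591621-22621384, was at 25.9 to 45.7 CPM in the controls with a median of 35.3. At 4 h it was at 44.8, 52.6, 39.8 and 27.4 CPM, and at 8 h at 36.5, 41.6, 43.6 and 40.4 CPM, mostly within the control range. At 12 h the values were 45.0, 62.8, 48.5 and 54.2 CPM, and at 16 h 54.3, 46.1, 66.8 and 48.4 CPM. All 4 libraries at 16 h and 3 of 4 at 12 h were above every control. At 20 h ERBB2 was at 113, 69.5, 56.6 and 43.7 CPM, where replicate 1 was the highest of all libraries and replicate 4 was within the control range. At 24 h it was at 46.7, 46.3, 31.5 and 42.3 CPM, and at 48 h at 27.4, 41.0, 59.2 and 41.5 CPM, overlapping the controls.

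The fitted log2 fold change of ERBB2 was 0.16 ± 0.19 at 4 h, 0.14 ± 0.19 at 8 h and 0.51 ± 0.19 at 12 h. The values at 16 and 20 h were 0.55 ± 0.19 and 0.94 ± 0.19, those at 24 and 48 h 0.18 ± 0.19 and 0.20 ± 0.19. With libraries scaled by column totals the 16 h and 24 h values were 0.90 and 0.65. The order of means was 20, 16, 12, 48, 24, 4 and 8 h, then control, and all neighbours overlapped.

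ERBB3, at chr5:21474218-21495040, was at 2.19 to 5.58 CPM in the controls with a median of 3.17. At 8 h, when NRG1 was highest, ERBB3 was at 2.08, 1.48, 1.76 and 3.09 CPM. Replicates 1 to 3 were below every control and replicate 4 was not. At 48 h it was at 3.49, 5.10, 7.95 and 3.19 CPM, with replicate 3 above every control. At the other 5 times ERBB3 ranged from 1.49 to 5.00 CPM. Its fitted log2 fold change was -0.71 ± 0.30 at 8 h and 0.53 ± 0.28 at 48 h, and between -0.28 and 0.16 at the other times. At 16 h and 20 h it was -0.14 at each time, and 0.20 and 0.16 with column totals. The order of means was 48 h, 24 h, control, 4, 20, 16, 12 and 8 h, with all neighbours overlapping.

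**Figure D2:**
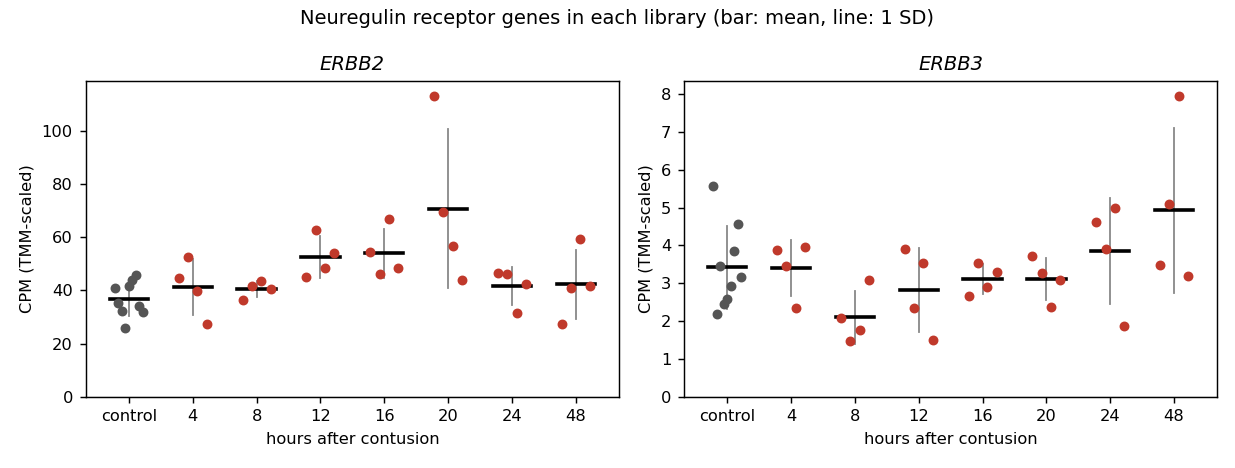
CPM (TMM-scaled) of ERBB2 and ERBB3 against hours after contusion, 1 point per library, with the group mean as a bar and 1 SD as a line (n = 9 controls, n = 4 at each time). ERBB2 means run from 36.9 in the controls to 70.6 at 20 h, and ERBB3 means from 2.10 at 8 h to 4.93 at 48 h.

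The plot of the receptor genes shows both expressed in every library, with group means within a narrow range compared with NRG1. ERBB4, the other neuregulin receptor gene, is not analysed here.

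NRN1, the neuritin gene at chr7:3682568-3691328, had its highest libraries at 4 h. In the controls it ran from 0 to 4.43 CPM with a median of 0.365, and 4 controls had 0 counts. At 4 h it was at 8.80, 15.9, 16.7 and 7.24 CPM, all above every control. At 8 h it was at 1.63, 0.0868, 0 and 0 CPM, and at 16 h at 0, 0.0635, 0.858 and 0.0687 CPM, all within the control range. Between those times, at 12 h, it was at 6.15, 6.43, 3.53 and 6.53 CPM, above every control in 3 of 4 libraries. At 20 h the values were 6.34, 2.49, 2.17 and 0.774 CPM, and at 24 h 3.26, 1.76, 0.214 and 0.360 CPM. At 48 h they were 0.920, 4.48, 1.85 and 3.19 CPM. In these late groups 2 of 12 libraries exceeded the highest control.

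The fitted log2 fold change of NRN1 was 3.46 ± 0.82 at 4 h and 2.36 ± 0.84 at 12 h. It was -1.32 ± 1.11 at 8 h and -2.11 ± 1.15 at 16 h, where it rested on few counts. Without 8 h replicate 1 the first of these was -4.77, and without 16 h replicate 3 the second was -4.37. Without control replicate 5, the 4 h and 12 h values were 4.07 and 2.97. The order of means was 4, 12, 20, 48 and 24 h, control, 8 and 16 h. The ranges at 4 and 12 h did not overlap, and all later neighbours did.

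The low values of NRN1 at 8 h and 16 h fell mostly in 1 library set. Set 1, which supplied 3 of the 8 h and all 16 h libraries, held NRN1 at 0 to 1.63 CPM over 9 libraries, its 2 controls included, with a median of 0.0687. The remaining 8 h library, replicate 4, was in set 5 and also had NRN1 at 0, while the set 5 libraries of 24 and 48 h were at 0.920 to 4.48 CPM. Sets 2 and 3, which supplied all 4 h libraries, held it at 0.214 to 15.9 and 0.360 to 16.7 CPM. Sets 4 and 5 held it at 0 to 6.43 and 0 to 4.48 CPM. With the sets as a term, the log2 fold change of NRN1 was 4.01, -0.50, 2.89 and -1.03 at 4, 8, 12 and 16 h. The part of the sets in the level of NRN1 was not tested.

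LGI1, at chr14:105219901-105251423, was the member whose level was lower after injury. In the controls it ran from 0.989 to 27.6 CPM with a median of 10.0. At 4 h it was at 2.17, 0.917, 1.34 and 1.43 CPM, near the lower end of the controls. At 8 h it was at 0.361, 0.174, 0.588 and 0.552 CPM, below every control. At 12 h the values were 0.683, 1.27, 1.51 and 0.687 CPM, and at 16 h 0.445, 0.317, 0.198 and 0.619 CPM. All 16 h libraries and 2 of the 12 h libraries were below every control. At 20 h LGI1 was at 2.14, 0.388, 0.280 and 0.0645 CPM, and at 24 h at 0.217, 0.183, 0.143 and 0.360 CPM, the lowest group. At 48 h it was at 0.674, 2.19, 0.695 and 19.1 CPM. Replicate 4 there lay among the higher controls, while replicates 1 and 3 were below every control.

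The fitted log2 fold change of LGI1 was -2.93 ± 0.80 at 4 h, -4.71 ± 0.94 at 8 h and -3.42 ± 0.84 at 12 h. It was -4.79 ± 0.91 at 16 h, -4.03 ± 0.87 at 20 h and -5.51 ± 0.96 at 24 h. At 48 h it was -0.99 ± 0.69, and -3.28 without replicate 4. Without 20 h replicate 1 the 20 h value was -5.49. The order of means was control, 48, 4, 12, 20, 8, 16 and 24 h, with all neighbours overlapping.

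**Figure D3:**
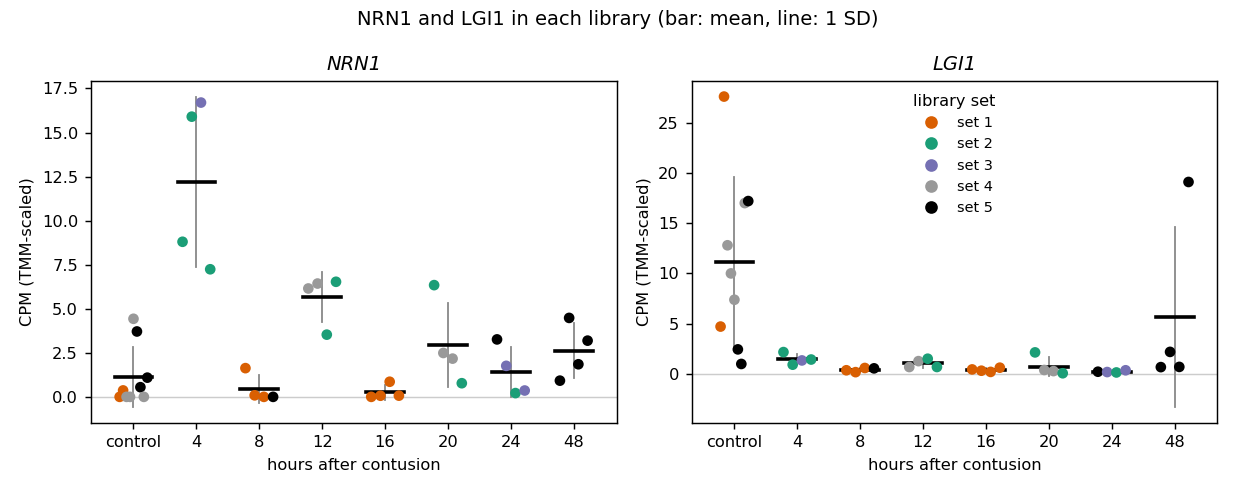
CPM (TMM-scaled) of NRN1 and LGI1 against hours after contusion, 1 point per library coloured by library set, with the group mean as a bar and 1 SD as a line (n = 9 controls, n = 4 at each time). NRN1 is high at 4 h in sets 2 and 3 and near 0 in set 1, and LGI1 in 48 h replicate 4 stands at 19.1 CPM while the other injured libraries are at or below 2.19 CPM.

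The plot of NRN1 and LGI1 by library set also shows the width of the LGI1 control range. In 48 h replicate 4, where LGI1 was high, NRG1 was at 0.0966 and ARC at 0.193 CPM, both within the control range. VGF, at 0.386 CPM, was above every control there. NRN1, ERBB2 and ERBB3, at 3.19, 41.5 and 3.19 CPM in that library, were within their control ranges. The summed neutrophil markers of that library, at 2.41 CPM, were also within the control range of 0.781 to 9.04 CPM.

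Counted by group, NRN1 was the 1 member of 7 whose 4 h libraries all lay above the controls, as did 2.28% of all genes. At 8 h these were NRG1, VGF and ARC, with LGI1 wholly below, where 13.8% of all genes lay above and 12.2% below. At 12 h the same 3 lay above (6.04% of all genes). At 16 h NRG1, VGF and ERBB2 lay above (17.2%) and LGI1 below (15.9%), and at 20 h NRG1, VGF and ARC lay above (14.2%). At 24 h LGI1 lay below (14.7%), and at 48 h VGF lay above (1.41%). The members were chosen on these contrasts, so the counts are listed and nothing is read from them.

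The 3 successive pairs of late times set 0 control libraries and 0 libraries of 4 to 12 h in the contrast, although the spread was estimated over all 37 libraries. There the members were tested with edgeR's quasi-likelihood test, with p-values adjusted by Benjamini-Hochberg over all genes. The members were listed for differences between injured and control muscle, and the late libraries may have entered that choice. These p-values may therefore not be independent of it. From 16 to 20 h 0 of 7 members passed the threshold of 0.05, as did 2.16% of all genes. DESeq2 and limma-voom also called 0. Among the 7, NRN1 had the lowest adjusted p. It went from 0.248 to 2.94 CPM in the mean, a log2 change of 3.51 ± 1.22 (adjusted p = 0.125).

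From 20 to 24 h 0 of 7 members passed, against 3.21% of all genes. Limma-voom also called 0. ERBB2 went from 70.6 to 41.7 CPM in the mean, a log2 change of -0.76 ± 0.23 (adjusted p = 0.0596). DESeq2 gave -0.75 with an adjusted p of 0.0311, and leaving out 20 h replicate 4 gave -0.93 with an edgeR adjusted p of 0.0245. ARC had a log2 change of -2.50 ± 1.08 (adjusted p = 0.216), and -4.02 (adjusted p = 0.0427) in edgeR without the libraries of set 2. VGF had a log2 change of -1.72 ± 0.82 (adjusted p = 0.265) and NRG1 one of -1.61 ± 0.86 (adjusted p = 0.332).

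From 24 to 48 h 1 of 7 members passed, where 19.5% of all genes did and 10.2% of all genes passed as higher. LGI1 rose from a mean of 0.226 ± 0.0945 to 5.67 ± 8.99 CPM (SD, n = 4 each), a log2 change of 4.52 ± 0.98 (edgeR adjusted p = 0.00155). All 4 libraries at 48 h were above all 4 at 24 h, which had 2 to 10 counts. The share of all genes so separated was not counted, so nothing is read from it. The size of the change turned on 48 h replicate 4: without it the log2 change was 2.23 and the adjusted p 0.0939. Limma-voom gave 2.87 with an adjusted p of 0.150, and with only the groups compared in the edgeR fit 0 members passed. The other 6 members had adjusted p-values of 0.468 to 0.994, with log2 changes of -0.36 to 0.90.

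The pathway lists that follow were also drawn up with earlier results of these data known. Most genes named from them were those with the smallest p-values of their list. Their p-values are therefore not independent of that choice and are descriptive. The other ligands of the ErbB family had a row for 4 of 10 listed genes. At 8 h 3 of the 4 rose, where 25.8% of all genes were called higher. AREG, encoding amphiregulin, went from 0.295 ± 0.444 CPM in the controls (SD, n = 9) to 4.79 ± 5.05 CPM (SD, n = 4), a log2 change of 4.00 ± 0.82 (edgeR adjusted p = 0.000145). Without 8 h replicate 1 the change was 2.99, and without control replicate 8 it was 4.83. The control mean of AREG lay near the level of 3 counts in a control library, 0.298 CPM. HBEGF, encoding heparin-binding EGF-like growth factor, had a log2 change of 2.74 ± 0.44, and EREG, encoding epiregulin, one of 2.29 ± 0.32. At the other 6 times 0 of these 4 were called higher. At 8 h the median log2 change was 2.51 over the 4 ligands and -0.07 over all genes tested. EREG passed as lower at 24 h (-0.94) and 48 h (-1.11), a call lost when control replicate 2, 24 h replicate 3 or 24 h replicate 4 was left out at 24 h. At 48 h it was lost without control replicate 2 or 4 or without 48 h replicate 1, 3 or 4. Both calls were also lost with column totals, limma-voom or the library sets as a term.

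Of 21 receptor, sheddase and regulator genes of ErbB signalling with a row, 8 rose and 5 fell at 8 h. The 13 called were 61.9% of the list, near the 54% of all genes. EGFR, the receptor of these other ligands, ran from -0.18 to 0.26 in log2 change over the 7 times and passed the test at 0 of them. ERRFI1, encoding an inhibitor of ErbB kinases, rose at 4, 8, 12 and 16 h by log2 changes of 2.33, 3.36, 2.04 and 1.52. The 16 h call was lost without 16 h replicate 2, and the 4 h and 16 h calls with the library sets as a term. LRIG3, of a family of membrane regulators of ErbB receptors, fell by 2.60 on the log2 scale at 8 h, from 10.7 ± 2.17 CPM in the controls (SD, n = 9) to 1.75 ± 0.503 CPM (SD, n = 4). SHC1, encoding an adaptor of receptor tyrosine kinases, rose at 8 to 24 h with log2 changes of 0.56 to 1.29.

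NTRK2, encoding the receptor of the neurotrophin BDNF, was called lower at 8 to 24 h. Its mean was 14.7 ± 6.96 CPM in the controls (SD, n = 9) and 3.17 ± 0.508 CPM at 24 h (SD, n = 4), a log2 change of -2.21 ± 0.47 (edgeR adjusted p = 0.000258). SORT1, encoding sortilin, the co-receptor of NGFR for proneurotrophins, fell by 1.02 on the log2 scale at 8 h. Over the 12 neurotrophic ligand and receptor genes with a row, 3 rose and 6 fell at 8 h, where 25.8% of all genes rose and 28.2% fell. At 24 h 0 rose and 8 fell, where 26.8% of all genes rose and 27.1% fell. With column totals 2 rose and 6 fell at 24 h. That scaling called 5716 of all genes there, against 5071 with TMM, and the median log2 change of all genes was 0.46. The shares of all genes by direction were not counted with it. PTN, encoding pleiotrophin, fell by 2.79 at 8 h (by 3.41 without 8 h replicate 4) and by 3.10 at 20 h. LIFR and GFRA1, receptor genes for leukaemia inhibitory factor and for GDNF, fell by 1.81 and 1.16 at 24 h.

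Of the 4 LGI family and partner genes with a row, 0 were called at 4 h, and 1 was called higher and 3 lower at 8 h, where 25.8% of all genes were called higher and 28.2% lower. The lower ones were ADAM22 and ADAM23, the receptor genes of LGI1, and LGI4. The higher one was DLG4, named after its values were seen, which encodes the postsynaptic scaffold PSD-95. DLG4 rose by log2 changes of 0.89 at 8 h, 0.76 at 12 h and 0.58 at 20 h. The 20 h call was lost without 20 h replicate 1 (log2 change 0.30, edgeR adjusted p = 0.251). ADAM22 fell by 2.24 on the log2 scale at 8 h (edgeR adjusted p = 1.51e-05), with log2 changes of -1.53 to -1.83 at 12 to 24 h, all called. ADAM23 fell by 2.36 at 8 h, 3.01 at 16 h and 2.85 at 24 h. LGI4, a related secreted ligand that acts in Schwann cell myelination, fell by 1.53 at 8 h. At 48 h 0 of the 4 genes were called, and their median log2 change was -0.09.

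Among 18 activity-regulated genes with a row, the group of ARC, 4 rose and 3 fell at 8 h, a share of 38.9% where 54% of all genes were called. RHEB, encoding a small GTPase that activates mTORC1, rose at 8 to 24 h with log2 changes of 0.61 to 1.08. NR4A2, encoding an orphan nuclear receptor, fell by 1.23 at 8 h and 1.72 at 12 h. HOMER1, encoding a postsynaptic scaffold, was called higher at 4 h and 12 h. It was called lower at 16, 20 and 24 h, by 1.83 at 24 h. Its 4, 12 and 16 h calls were lost with the library sets as a term. Among 5 granin and prohormone-processing genes, the group of VGF, 1 rose and 2 fell at 8 h, or 60% against the same 54%. FURIN, encoding a proprotein convertase, rose by a log2 change of 1.65 at 8 h. CPE, encoding carboxypeptidase E, fell by 2.00 at 20 h, and PENK, encoding proenkephalin, fell by 1.74 there.

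In 15 neuromuscular junction genes with a row, 4 rose and 4 fell at 8 h, a share of 53.3% against 54% of all genes. At 48 h 7 rose and 0 fell, where 12.8% of all genes rose and 7.45% fell. With column totals 8 rose and 0 fell at 48 h. That scaling called 3348 of all genes there, against 1906 with TMM, and the median log2 change of all genes was 0.34. The shares of all genes by direction were not counted with it. RUNX1, encoding a transcription factor that is induced by denervation in muscle, rose at all 7 times, with log2 changes from 3.05 ± 0.48 at 48 h to 5.49 ± 0.50 at 8 h. Without 48 h replicate 1 its 48 h value was 2.37. CHRNA1, encoding the acetylcholine receptor alpha subunit, rose by a log2 change of 2.07 ± 0.36 at 48 h. AGRN, encoding agrin, fell by 1.89 at 8 h and 2.49 at 20 h (by 3.11 without 20 h replicate 1). In 11 nerve repair and outgrowth genes, 4 rose and 4 fell at 8 h, against 25.8% and 28.2% of all genes. SEMA3C, a guidance ligand gene, fell by 2.45 at 24 h, RTN4, encoding Nogo, fell by 1.91 there, and L1CAM, an axonal adhesion gene, fell by 1.49 at 8 h.

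**Figure D4:**
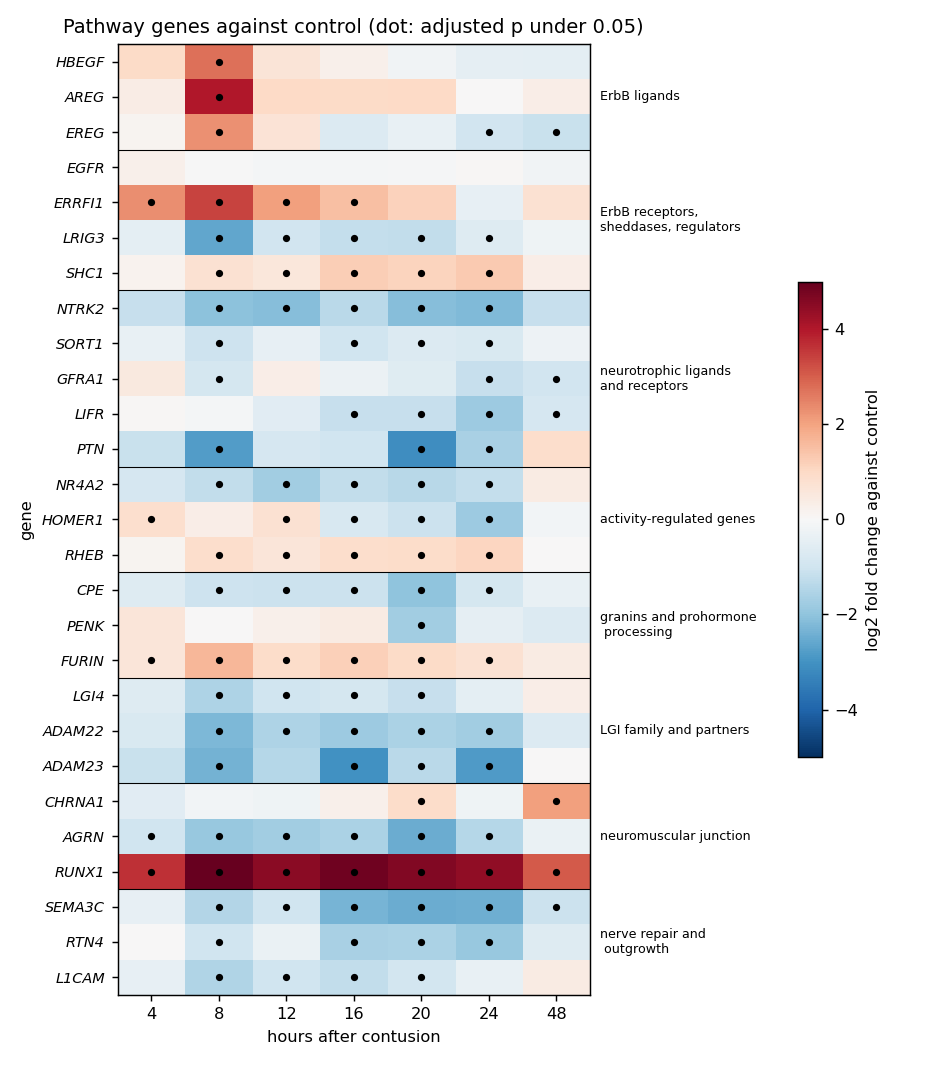
Log2 fold change against control (colour, from -5 to 5) of 27 named pathway genes at 4 to 48 h after contusion, grouped by list, with a dot where the edgeR adjusted p was under 0.05. Most of the genes were named for having the smallest p-values of their list. RUNX1 is the row with the highest values, from 3.05 to 5.49, and the 3 ErbB ligands HBEGF, AREG and EREG are high at 8 h.

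The plot of pathway genes against control shows the ErbB ligands called higher at 8 h alone of the 7 times, and RUNX1 called higher at all 7. Of all 90 pathway genes tested, 11 were called at 4 h (7 higher and 4 lower), where 18.3% of all genes were (9.22% higher and 9.06% lower). At 8 h 55 were called (28 and 27), against 54% of all genes (25.8% and 28.2%). At 12 h 32 were called (13 and 19), against 31% (16.3% and 14.7%). At 16 h it was 45 (19 and 26), against 53.1% (25.3% and 27.8%), and at 20 h 55 (20 and 35), against 51.5% (25.4% and 26.2%). At 24 h 52 were called (16 and 36), against 53.9% (26.8% and 27.1%), and at 48 h 13 (9 and 4), against 20.3% (12.8% and 7.45%). The shares were thus near those of all genes at most times, and the median log2 change of the 90 lay between -0.44 at 24 h and 0.06 at 48 h, beside -0.07 to -0.02 for all genes over the 7 times. Over the 7 times together 78 of 90 were called, where 83.2% of all genes were.

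Those directions depended on the scaling. With column totals the calls were 5 higher and 10 lower at 4 h. At 16, 20, 24 and 48 h the calls higher numbered 25, 28, 27 and 27, and those lower 18, 23, 20 and 3. That scaling moved the median log2 change of all genes to -0.18 at 4 h and to 0.31, 0.29, 0.46 and 0.34 at 16, 20, 24 and 48 h. Of all genes it called 1691 at 4 h and 5000, 5076, 5716 and 3348 at those later times. Their split by direction was not counted. The counts at 4 h and 48 h also turned on single libraries: 3 without 4 h replicate 2 and 19 without 4 h replicate 1, 8 without 48 h replicate 1 and 20 without 48 h replicate 4. All genes called in those fits, in the same order, numbered 608, 1954, 368 and 2732.

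Neutrophil markers were high in several of the libraries where NRG1 was high. The sum of 6 neutrophil markers with a row, of 10 listed, was 0.781 to 9.04 CPM in the controls. At 8 h it was 260, 180, 74.4 and 15.3 CPM in replicates 1 to 4, the same order as NRG1 in those libraries. At 16 h it was 81.9, 96.9, 18.4 and 27.6 CPM, again in the order of NRG1 but not of VGF. At 20 h the sum was 14.6, 37.5, 21.3 and 78.4 CPM, an order that neither NRG1 nor VGF followed. VGF was highest there in replicate 3, at 7.41 CPM. At 4 h the sum was 3.20, 11.4, 12.7 and 1.54 CPM, with the 2 higher libraries being those with NRG1, VGF and ARC high. Each of the 6 markers was at 0 in 1 to 7 of the 37 libraries, and the most abundant were CSF3R and IL1R2. The sum of 10 macrophage markers, led by CD163 and CSF1R, was 54.9 to 167 CPM in the controls. At 8 h it was 539, 366, 289 and 128 CPM, also in the order of NRG1. At 16 h it was 481, 491, 312 and 271 CPM, not in that order. The lymphocyte marker NKG7 was in the order of NRG1 at 8 h (10.8, 9.03, 4.95 and 3.86 CPM) and at 16 h (14.1, 16.4, 8.58 and 8.66 CPM). At 20 h neither followed NRG1. The match with NRG1 was thus not particular to neutrophil markers. Their part in the levels of the members was not tested.

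**Figure D5:**
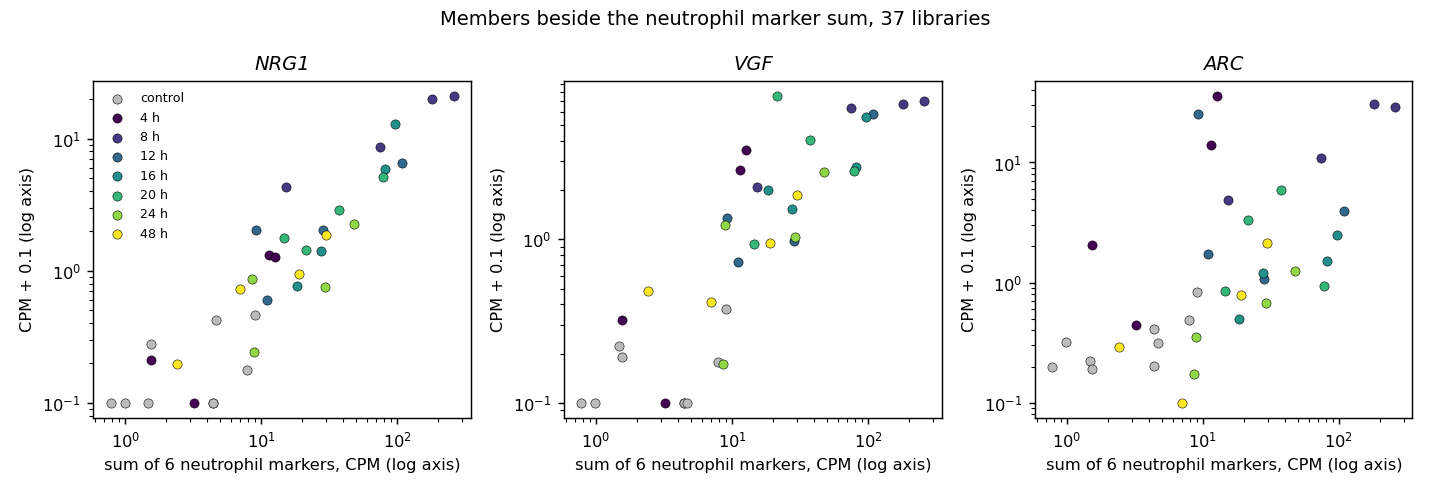
CPM plus 0.1 of NRG1, VGF and ARC (log axis) against the summed CPM of 6 neutrophil markers (log axis), 1 point per library, coloured by group. NRG1 is highest in the 8 h libraries whose marker sums were 260 and 180 CPM, and ARC has its highest value, 35.4 CPM, in a 4 h library whose marker sum was 12.7 CPM.

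The plot against the neutrophil markers shows NRG1 and the marker sum high in the same libraries, while ARC was high also where the sum was low. Schwann cell markers, the cells on which axonal NRG1 acts, were measured through 4 of 11 listed genes, none of them at 0 in any library. Their sum, led by PMP22 and MBP, was 117 to 232 CPM in the controls, 261 to 381 at 4 h, 261 to 331 at 8 h and 130 to 214 at 48 h. Of these 4 genes, 1 was called higher at 4 h (9.22% of all genes) and 2 at 8 h (25.8%). At 20 h 1 was called higher and 2 lower, where 25.4% and 26.2% of all genes were. Of 10 neuron and axon markers, 1 was tested: SYN1, at 15.5 to 31.9 CPM in the controls and 10.8 to 14.9 at 8 h. At 8 h fibroblast markers (7 of 8 tested, led by COL3A1 and COL1A1) summed to 731 to 2620 CPM against 1870 to 7040 in the controls. Pericyte and smooth muscle markers (7 of 8) were at 288 to 446 against 655 to 1280 CPM. Endothelial (7 of 9), adipocyte (5 of 6), keratinocyte (3 of 8) and satellite cell (5 of 6) markers at 8 h had ranges that overlapped those of the controls. The lymphocyte marker NKG7, 1 of 9 tested, was at 3.86 to 10.8 CPM at 8 h and 1.36 to 2.91 in the controls. Muscle fibre markers (5 of 11) summed to 52400 to 60600 CPM at 8 h and 17000 to 33000 at 24 h, against 50000 to 78700 in the controls. How far these markers bear on the members was not tested.

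The genes whose log2 CPM tracked each member most closely over the 37 libraries were named by Pearson's r, without a test. For NRG1 they were SBNO2 (0.925), OSM, which encodes the cytokine oncostatin M (0.918), and DKC1 (0.916). For VGF they were IL4R, the interleukin 4 receptor gene (0.932), BAZ1A (0.928) and SBNO2 (0.925). For ARC they were OSMR, the oncostatin M receptor gene (0.924), SGMS2 (0.921) and MAST4 (0.917). LGI1 lay closest to HADH (0.946) and HADHB (0.937), both genes of mitochondrial fatty acid oxidation, and to IGSF1 (0.935). NRN1 had no gene above TMBIM6 (0.735), followed by ST3GAL5 (0.719) and HOXC6 (0.712). ERBB2 had GPRC5C (0.747), OSBPL6 (0.692) and CAPN1 (0.669), and ERBB3 had LXN (0.699), COPG1 (0.691) and CUL7 (0.672). The receptor genes and NRN1 thus had no neighbour as close as those of NRG1, VGF, ARC and LGI1. The points share library, depth and set membership.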

How the data were processed

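Per the labels' protocols, Trizol RNA of frozen muscle was made into NEBNext Ultra libraries and sequenced in pairs of 150 bp (HiSeq-2500). The submitters' processing notes name HISAT2 2.2.1 and HTSeq, with Trimmomatic, FastQC and MultiQC, and the build Sscrofa11.1. The authors deposited raw counts per gene symbol for 37 libraries. Every row reaches at least 101 counts in some library, so the table is part of each library and its column totals are not sequencing depth. The strand setting of the counting is not stated, so reads of overlapping or antisense genes cannot be told apart.

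With edgeR 4.0.16 (limma 3.58.1, R 4.3.3), TMM factors scaled the counts, filterByExpr removed low genes, and robust quasi-likelihood models were fitted to all 37 libraries with the group as factor. The threshold was a Benjamini-Hochberg adjusted p of 0.05 over the 9411 genes tested. The fits were tested on simulated data. Log2 CPM for correlations used a prior count of 2. The floor of 3 counts covers counting error only. Gene spans are from a RefSeq table of Sscrofa11.1 that matched 8952 of 9418 symbols. No pair of libraries of 1 group agreed within sampling noise (lowest chi-square per degree of freedom 16.1 over 78 pairs).

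The members and gene lists were chosen with earlier results of these data known, and the thresholds of the 5 library sets come from an earlier analysis: column total above 20 M (set 3), then C1QBP above 8 CPM (set 1), NDUFAF8 below 4 CPM (set 2) and ND6 at most 32 CPM (set 4), with the rest in set 5. Of 139 pathway genes listed, 90 had a row and were tested. The named genes are all members with a row, the 3 genes of each pathway list with the smallest p over the 7 times together, EGFR, NTRK2, SORT1 and ADAM22 as related receptors (ERBB4 and another gene of the rule are not analysed here), up to 2 markers of each cell type by mean CPM, and the 3 genes most like each member. Alternatives were other size factors, column totals, other filters (none, or 1 CPM in 4 libraries), DESeq2 1.42.0, limma-voom, a replicate block, the library sets as a term, leaving out set 2, fitting only the groups compared, and leaving out each library. Leaving out 48 h replicates 2 and 4 together was added after the data were seen. The pathway lists were ErbB ligands, ErbB receptors with sheddases and regulators, neurotrophic, activity-regulated, granin, LGI family, neuromuscular junction and nerve repair genes.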

Additional observations from a re-analysis of the deposited data

Results flagged for a closer look

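Of 56 combinations of member and group examined, 2 had a library set apart from the others of its group by more than Dixon's 95% criterion, which chance meets in about 1 of 20 groups. VGF in 8 h replicate 4 was at 1.99 CPM, where the other 3 libraries were at 6.30 to 6.96 CPM. That library was the 1 at 8 h from set 5, and its neutrophil marker sum of 15.3 CPM was the lowest at 8 h. NRN1 in 12 h replicate 3 was at 3.53 CPM, where the other 3 were at 6.15 to 6.53 CPM. It came from set 2, as did replicate 4 at 6.53 CPM.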

How the results depend on the processing

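Depth limits the low members most: 3 counts were 0.236 to 0.369 CPM in the controls, at or above most control values of NRG1 and VGF. The pathway counts kept within 1.5 times of those reported except at 4 h, 16 h and 48 h. With the library sets as a term they were 3 at 4 h and 28 at 16 h, where 259 and 2575 of all genes were called. The main fit called 1721 and 4995 of all genes at those times. At 48 h the pathway counts were 30 with column totals and 32 without 48 h replicates 2 and 4, where 3348 and 3448 of all genes were called. The main fit called 1906 of all genes at 48 h. Leaving out 1 library gave 3 to 19 at 4 h, 8 to 20 at 48 h and, for the members, 0 to 1 called from 20 to 24 h and 0 to 1 from 24 to 48 h. From 20 to 24 h 1 member was called by DESeq2 (ERBB2) and 1 without set 2 (ARC), where 558 and 109 of all genes were called. From 24 to 48 h 0 were called by limma-voom, 0 with only the groups compared and 0 without 48 h replicates 2 and 4, where LGI1 had a log2 change of 1.5 (edgeR adjusted p = 0.415). The cause was not tested.

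Late changes that did not pass the test also turned direction. NRG1 was 0.39 from 16 to 20 h with the sets as a term. From 24 to 48 h it was 0.32 with limma-voom, 0.25 with the sets, 0.78 without set 2 and 0.58 without 48 h replicates 2 and 4. VGF from 24 to 48 h was 0.43 with limma-voom, 0.33 without set 2 and 0.25 without those replicates, and NRN1 was 0.00 without them. LGI1 from 16 to 20 h was -0.10 with limma-voom and -0.24 without set 2. ERBB2 from 24 to 48 h was -0.11 with column totals, -0.01 with limma-voom, -0.06 with the sets and -0.09 without set 2. ERBB3 from 16 to 20 h was -0.01 with RLE size factors, DESeq2 or the replicate block, -0.04 with column totals, -0.02 with limma-voom or the sets, -0.14 without set 2 and 0.00 with only the groups compared. From 24 to 48 h it was -0.01 with the sets. Leaving out 1 library, the ranges from 16 to 20 h were -1.43 to 0.05 for NRG1, -0.26 to 0.86 for VGF, -0.70 to 1.16 for LGI1 and -0.09 to 0.09 for ERBB3. From 24 to 48 h they were -0.71 to 0.75 for NRG1, -1.06 to 0.30 for VGF, -0.50 to 1.52 for ARC and -0.19 to 0.18 for ERBB2.

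No direction of a named pathway gene that was called turned under any alternative run, and 135 such values lost the call while 3027 kept it. Among all pathway genes called, named or not, the direction turned for 1 at 20 h and 1 at 24 h with column totals. With the replicate block it turned for 1 at 24 h. The replicate numbers did not pair the libraries: correlations of deviations were over 0.1 in 32 of 84 pairs with the same number at different times and in 96 of 252 with different numbers. With the replicate block the pathway counts were 11, 54, 32, 37, 48, 52 and 15 at the 7 times and 75 over them together, and the members called were 0, 0 and 1 in the late pairs. All genes called with the block numbered 1628, 4466, 2609, 4062, 4240, 4455 and 1798 at the 7 times, and 7488 over them together. The block ended the 16 h calls of ERRFI1 (log2 change 1.30, edgeR adjusted p = 0.106) and NTRK2 (edgeR adjusted p = 0.135), among others.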

Other observations

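Other genes of the lists, chosen after their values were seen, had some of the larger changes. A p-value given with them is not independent of that choice. DUSP5, encoding a nuclear phosphatase of ERK kinases and listed with the activity-regulated genes, rose by a log2 change of 5.14 ± 0.75 at 8 h (edgeR adjusted p = 1.77e-06). LIF, encoding leukaemia inhibitory factor, the ligand of LIFR, rose by 3.77 ± 0.66 at 8 h, from 0.966 ± 0.635 CPM in the controls (SD, n = 9) to 13.7 ± 7.19 CPM (SD, n = 4). Its receptor gene LIFR had a log2 change of -0.11 there and fell by 1.81 at 24 h. MUSK, encoding the agrin-responsive kinase of the neuromuscular junction, had log2 changes between 0.13 and 0.60 up to 20 h and rose by 1.98 at 24 h and 2.26 at 48 h. The 24 h call of MUSK was lost with the library sets as a term.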
